A study of Homo sapiens with 6 samples.

Results

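The genes described here encode RNA-binding proteins that shape neuronal transcripts: ELAVL1, ELAVL2, ELAVL3 and ELAVL4, NOVA1 and NOVA2, RBFOX1, RBFOX2 and RBFOX3, and SRRM4. They were chosen by symbol, and all 10 were found among the 26372 genes of the deposited table. RNA came from the neuroblastoma line BE(2)-M17, an established human cell line, in 3 control libraries and 3 in which GOMAFU had been knocked down. GOMAFU is a nuclear long non-coding RNA, and the table carries it as MIAT. The libraries carry replicate numbers 2, 3 and 4 in both groups. All cells are of the same line. Neither the treatment of the controls nor the sequence used for the knockdown is stated in the labels. A lipid reagent was used for transfection, with small RNA at 100 pmol. Nothing in the labels says that replicates were separate cultures, so each p-value measures the spread between these libraries, which may be technical. In bulk RNA, fewer cells of a type and less RNA per cell cannot be told apart.

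ELAVL proteins, also called Hu proteins, bind U-rich and AU-rich stretches through RNA recognition motifs and mostly stabilise mRNAs or raise their translation. ELAVL1 is present in nearly all cell types, whereas ELAVL2, ELAVL3 and ELAVL4 are typical of neurons and are antigens in a paraneoplastic neurological syndrome. NOVA proteins bind clusters of UCAU-like elements through KH domains and steer alternative exons of synaptic transcripts. RBFOX proteins bind UGCAUG beside alternative exons, and RBFOX3 is the antigen NeuN used to mark mature neurons. SRRM4 promotes inclusion of neuronal microexons. FPKM per gene shows how much transcript of each regulator was present and does not show how any exon was spliced.

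The members of a family resemble each other in sequence, so it matters whether reads can be told apart. The 60 bases of coding sequence below are the stretch most alike within each family, taken from the principal transcripts of GENCODE release 29 (GRCh38), with capitals at every position where the family members differ. In the ELAVL family 46 of the 60 positions were identical in all 4 genes, and in the RBFOX family 48 were identical in all 3.
ELAVL1: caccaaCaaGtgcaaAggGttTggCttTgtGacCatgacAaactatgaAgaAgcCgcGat
ELAVL2: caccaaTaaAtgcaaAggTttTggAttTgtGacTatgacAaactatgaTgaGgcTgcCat
ELAVL3: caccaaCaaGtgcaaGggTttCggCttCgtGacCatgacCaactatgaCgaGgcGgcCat
ELAVL4: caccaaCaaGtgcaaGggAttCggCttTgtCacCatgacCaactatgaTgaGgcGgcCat
RBFOX1: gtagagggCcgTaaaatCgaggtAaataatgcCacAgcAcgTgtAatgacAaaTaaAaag
RBFOX2: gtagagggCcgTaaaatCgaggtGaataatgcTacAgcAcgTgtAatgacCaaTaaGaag
RBFOX3: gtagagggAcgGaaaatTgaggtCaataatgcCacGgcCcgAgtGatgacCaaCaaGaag

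Over the whole aligned coding sequence ELAVL2 and ELAVL4 were the closest ELAVL pair, at 77.7% identity. ELAVL1 was 69.6% to 70.2% identical to the 3 neuronal genes. NOVA1 and NOVA2 shared 68.2%. The longest run of identical bases in any of these pairs was 47 bases, between RBFOX1 and RBFOX2, and within the ELAVL family it was 26 bases, between ELAVL3 and ELAVL4. Reads were 150 bases long, so a read that lies wholly in coding sequence is longer than any run the members share. The authors' handling of reads that map to more than 1 place is not given in the sources used here.

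The targeted transcript was checked first. MIAT (chr22:26646428-26676475, plus strand, GRCh38) was measured at 5.38, 5.96 and 8.57 FPKM in control replicates 2, 3 and 4. Knockdown replicates 2, 3 and 4 held 1.27, 1.32 and 3.21 FPKM, so the groups did not overlap. Depth relative to control replicate 3, read from the smallest steps between low values, was 0.97 to 1.10 in the controls and 1.06 to 1.36 in the knockdown libraries. Knockdown replicate 4 stood apart: its log2 values correlated with those of the other 5 libraries at 0.940 to 0.956, whereas the other libraries reached 0.990 to 0.997 with their nearest neighbour. The summed FPKM of 26 interferon response genes was 46.5 to 53.8 in the controls and 543, 85.5 and 12133 in knockdown replicates 2, 3 and 4. Adrenergic neuroblastoma markers were present (6 of 8 averaged 1 FPKM or more), with TH under that level. Of 11 markers of post-mitotic neurons, RBFOX3 among them, 5 reached 1 FPKM, and the transmitter genes SLC17A6 and GAD2 were listed at 0. None of 6 glial or 4 leukocyte markers reached 1 FPKM, and their sums were at most 2.45 and 2.63 FPKM in any library, the latter in knockdown replicate 4. Of 5 fibroblast markers 3 did, with COL1A2 listed at 0 and sums of 80.8 to 101 FPKM in controls and 93.7 to 104 in knockdown libraries.

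The neuroblastoma cells expressed 8 of the 10 genes with averages of 1 FPKM or more, and the levels spanned from ELAVL3 at 81.9 ± 3.88 FPKM to RBFOX3 at 0.23 ± 0.05 FPKM (SD over all 6 libraries). FPKM is scaled by gene length, so levels of different genes can be set side by side, but only roughly. The annotation behind that scaling is not given, and the libraries numbered 4 shift with transcript length (below), so close ranks are approximate. Next to ELAVL3 came RBFOX2 (66.4 ± 12.5 FPKM), whose range over the libraries overlapped that of ELAVL3, with ELAVL3 the higher in 5 of 6 libraries. ELAVL4 (43.2 ± 3.52 FPKM) and ELAVL1 (20.0 ± 2.13 FPKM) followed, each with a range separate from its neighbours. ELAVL2 (10.0 ± 2.51 FPKM) and SRRM4 (9.20 ± 1.06 FPKM) overlapped, and each was the higher in 3 of 6 libraries. NOVA1 (6.68 ± 0.99 FPKM) and NOVA2 (2.59 ± 0.83 FPKM) came next and did not overlap. RBFOX1 (0.26 ± 0.10 FPKM) and RBFOX3 overlapped each other and lay below all others.

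**Figure D1:**
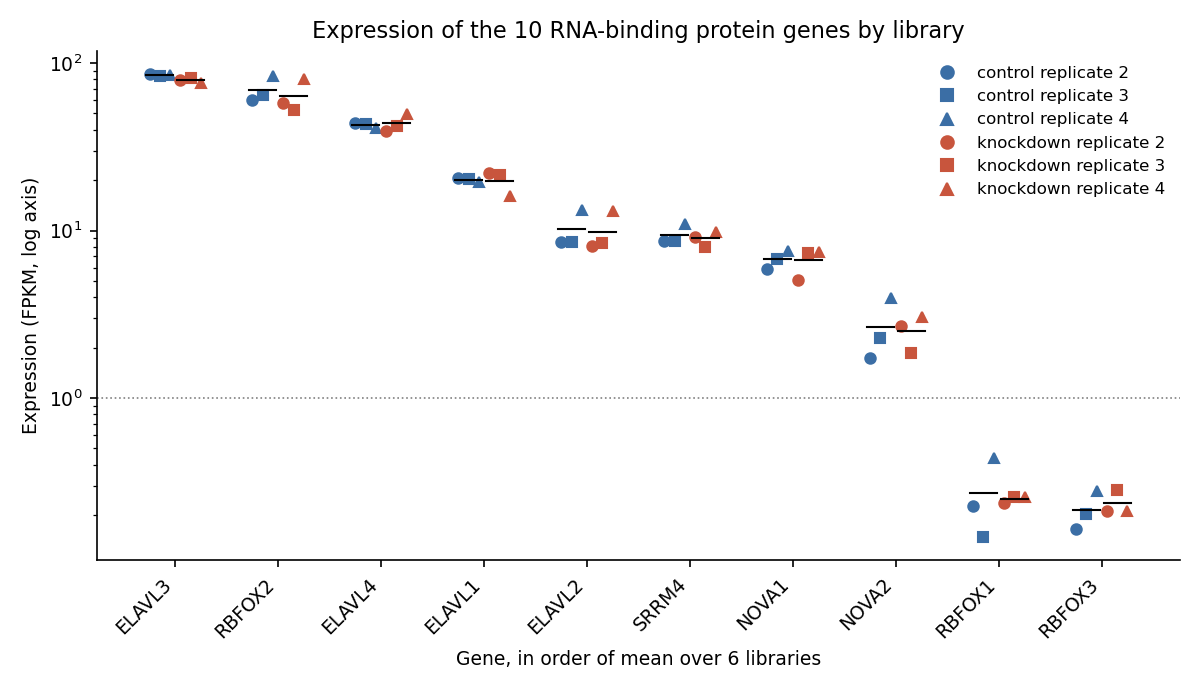
Expression (FPKM, log axis) of the 10 genes in each of 6 libraries, with blue for control and red for knockdown, marker shape for the replicate number, black bars for group means (n = 3 each) and a dotted line at 1 FPKM. ELAVL3 and RBFOX2 are the most abundant, RBFOX1 and RBFOX3 lie under 0.5 FPKM in every library, and for ELAVL2 and RBFOX2 the triangles (replicate 4) of both groups sit above all other points.

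Of the ELAVL family, ELAVL3 (HuC; chr19:11451326-11481046, minus strand) held the largest part. It stood at 86.1, 83.7 and 85.3 FPKM in control replicates 2, 3 and 4 whereas knockdown replicates 2, 3 and 4 had 79.0, 81.4 and 76.1 FPKM. All 3 knockdown values lay below all 3 controls, at 92.7% of the control mean. The fitted difference was -0.11 on the log2(FPKM + 1) scale (SE 0.07, 95% interval -0.26 to 0.05) and did not pass the threshold (adjusted p = 0.9998, limma). ELAVL3 was the 1 gene of the 8 tested whose groups did not overlap; among all 12164 genes tested 4.35% lay lower and 4.01% higher without overlap. ELAVL3 was also the single member whose fitted direction was the same under every one of the 17 alternative settings, with differences of -0.13 to -0.08 and adjusted p from 0.231 to 1. Because its groups did not overlap, settings that leave out or reweight libraries could not reverse that direction. The unchanged direction therefore largely restates the lack of overlap and is no further support. Another annotated coding gene, AC008481.3, overlaps ELAVL3 on the same strand, so the values of ELAVL3 may include its reads.

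ELAVL4 (HuD; chr1:50048014-50203786, plus strand), known for stabilising GAP43 mRNA in growing axons, stood at 43.7, 43.3 and 41.1 FPKM in control replicates 2, 3 and 4. The knockdown replicates 2, 3 and 4 held 39.4, 42.3 and 49.7 FPKM. Knockdown replicate 4, the library with the strongest interferon response, was thus above all controls while knockdown replicate 2 was below them. The log2 difference was 0.03 (SE 0.10, 95% interval -0.20 to 0.26), and without knockdown replicate 4 it was -0.06.

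ELAVL1 (HuR; chr19:7958579-8005659, minus strand) varied little among the controls, at 20.6, 20.2 and 19.5 FPKM in replicates 2, 3 and 4. It was 22.1 and 21.4 FPKM in knockdown replicates 2 and 3 and 16.0 FPKM in knockdown replicate 4. The first 2 of these lay above every control and the last below every control, so the group means nearly coincided (20.1 ± 0.57 and 19.8 ± 3.31 FPKM, SD, n = 3 each). The log2 difference of -0.03 (SE 0.12, 95% interval -0.33 to 0.26) became 0.11 without knockdown replicate 4. Neither value passed the threshold. ELAVL1 and ELAVL4 thus lay on opposite sides of their controls in knockdown replicate 4, the library with the strongest interferon response. In knockdown replicate 2, whose interferon sum was also raised (543 FPKM), they lay on the reverse sides, ELAVL1 above and ELAVL4 below all controls. The part of the interferon response in these values was not tested.

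ELAVL2 (HuB; chr9:23690104-23826337, minus strand) differed more by replicate number than by group. It was 8.55, 8.55 and 13.3 FPKM in control replicates 2, 3 and 4 and 8.03, 8.42 and 13.1 FPKM in the knockdown replicates of the same numbers. Replicate 4 was 1.56 times the mean of the other 2 in the controls and 1.60 times in the knockdown libraries. The difference between groups was -0.04 (SE 0.22, 95% interval -0.57 to 0.49), several times smaller than the spread within either group.

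The balance within the ELAVL family can be read without regard to how a library was scaled. ELAVL2, ELAVL3 and ELAVL4 together made up 87.0%, 87.0% and 87.8% of the summed ELAVL FPKM in control replicates 2, 3 and 4. In knockdown replicates 2, 3 and 4 they made up 85.1%, 86.1% and 89.7%. The knockdown values thus lay on both sides of the controls, with means of 87.3 ± 0.42% and 87.0 ± 2.38% (SD, n = 3 each; exact two-sided permutation p = 0.9, with 0.1 the smallest value possible for 3 against 3). The difference of -0.31 percentage points became -1.66 without knockdown replicate 4, a comparison in which both remaining libraries lay below all 3 controls (exact permutation p = 0.2). ELAVL3 alone made up 53.6% to 54.2% of the sum in the controls and 53.2%, 53.0% and 49.1% in knockdown replicates 2, 3 and 4.

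NOVA1 (chr14:26443093-26597754, minus strand) stood at 5.89, 6.78 and 7.52 FPKM in control replicates 2, 3 and 4 against 5.10, 7.37 and 7.42 FPKM in the knockdown replicates. Knockdown replicate 2 held the lowest value, and the other knockdown values lay within the control range. Its log2 difference was -0.03 (SE 0.15, 95% interval -0.39 to 0.33). NOVA2 (chr19:45933734-45973546, minus strand), the paralogue that predominates in the neocortex, stood at 1.73, 2.28 and 3.95 FPKM in the controls, against 2.69, 1.85 and 3.04 FPKM in the knockdown replicates. NOVA2 had the widest relative spread of the tested members (coefficient of variation 32.0% over 6 libraries), and its difference was -0.02 (SE 0.24, 95% interval -0.59 to 0.55). NOVA1 made up 65.5% to 80.0% of the summed NOVA FPKM, with both ends of that range in knockdown libraries.

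In the RBFOX family nearly all transcript came from RBFOX2 (chr22:35738736-36028425, minus strand), at 99.0% to 99.5% of the family's FPKM in every library. It stood at 60.2, 64.5 and 83.2 FPKM in control replicates 2, 3 and 4 while the knockdown replicates had 58.1, 52.4 and 80.2 FPKM. As with ELAVL2, both libraries numbered 4 were high, at 1.33 and 1.45 times the mean of the other 2 libraries of their group. The log2 difference between groups was -0.13 (SE 0.18, 95% interval -0.57 to 0.30; adjusted p = 0.9998, limma). Without both libraries numbered 4 the log2 difference of RBFOX2 was -0.17, with an adjusted p of 0.771 by limma. Without control replicate 4 alone the difference was 0.0032.

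The neighbourhood of RBFOX2 on chromosome 22 was also examined. Of the 20 tested genes nearest to it in gene order (10 on each side, from 31944461 to 37020183), 6 were lower and 2 higher without overlap. Among all genes tested 4.35% lay lower and 4.01% higher without overlap. The median log2 difference of the 20 genes was -0.13 against -0.01 for the whole set of tested genes. The 2 nearest tested genes, APOL6 and APOL3, are interferon-inducible and lay above 0, at 1.63 and 1.06. For the other 9 members the medians of the 20 nearest genes lay between -0.05 and 0.05. Their largest counts without overlap were 2 lower and 3 higher of 20, both near ELAVL2. Whether the level of RBFOX2 moves with that of its surroundings was not tested.

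RBFOX1 and RBFOX3 were under the filter on low values and were not tested. RBFOX1 (chr16:5239802-7713338, plus strand), a gene tied to epilepsy and autism, was listed at 0.23, 0.15 and 0.44 FPKM in control replicates 2, 3 and 4 with 0.24, 0.26 and 0.26 FPKM in the knockdown replicates. RBFOX3 (chr17:79089345-79516148, minus strand) was listed at 0.16, 0.20 and 0.28 FPKM in the controls, with 0.21, 0.28 and 0.21 FPKM in the knockdown replicates. The groups overlapped for both genes. RBFOX1 spans 18 other annotated genes, 7 of them on the opposite strand, and the sources used here do not say whether strand was counted, so its low values may include their reads.

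SRRM4 (chr12:118981495-119163051, plus strand) stood at 8.60, 8.69 and 10.97 FPKM in control replicates 2, 3 and 4. It stood at 9.15, 7.98 and 9.81 FPKM in knockdown replicates 2, 3 and 4. The groups overlapped, with a log2 difference of -0.06 (SE 0.12, 95% interval -0.34 to 0.22). Both libraries numbered 4 again held the highest value of their group.

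**Figure D2:**
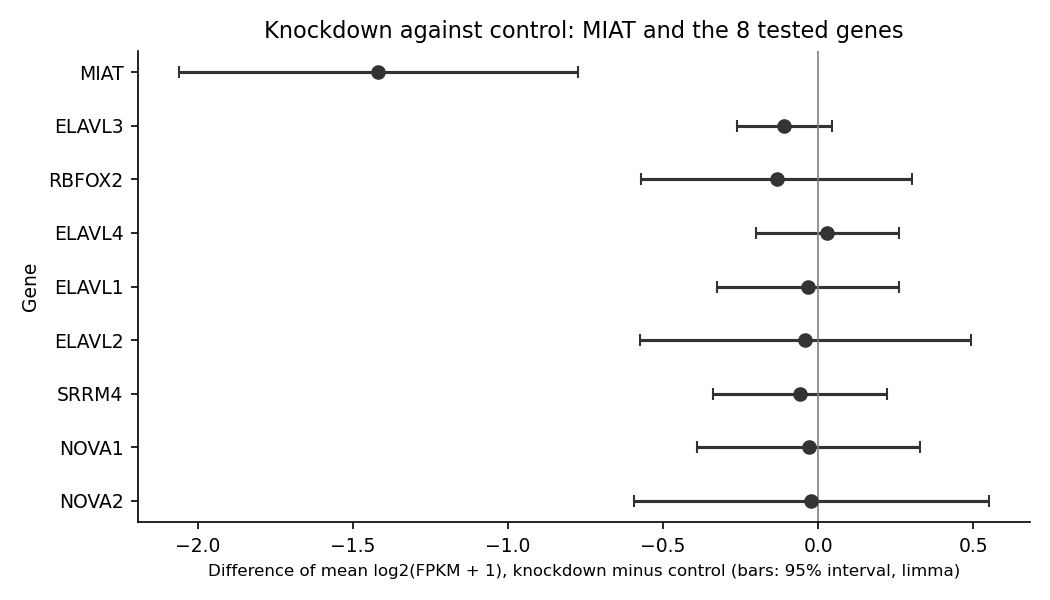
Difference of mean log2(FPKM + 1), knockdown minus control, for MIAT and the 8 tested genes, with bars for the 95% interval from limma (n = 3 libraries in each group). MIAT lies at -1.42, and the interval of each of the 8 genes includes 0, the narrowest being that of ELAVL3 (-0.26 to 0.05).

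Against control, then, 0 of the 8 tested members passed an adjusted p under 0.05 by limma, as did 0 of 12164 genes (0%). At an unadjusted p under 0.05 there were 0 members and 263 genes (2.16%). The members' median log2 difference was -0.04 and that of all genes -0.01. MIAT itself, at -1.42 (SE 0.27), did not pass after adjustment over all genes (adjusted p = 0.9998), so missing the threshold does not show that a member stayed the same. The 95% intervals give the range of each difference: on the log2(FPKM + 1) scale the fold difference lay between 0.83 and 1.03 for ELAVL3, between 0.87 and 1.20 for ELAVL4 and between 0.66 and 1.47 for NOVA2, the widest.

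The libraries numbered 4 stood apart from the rest for 6 of the 8 tested members, though not in 1 direction. Both libraries numbered 4 lay above the other 4 for 5 of the 8 tested members (ELAVL2, NOVA1, NOVA2, RBFOX2 and SRRM4) and below them for 1, ELAVL1. Such separation was common in the table: 21.2% of all genes tested lay above and 24.5% below in both libraries numbered 4. This grouping was noticed in the values, so it is given with no test. ELAVL3 and ELAVL4 showed no such pattern. NOVA1 is the borderline case, since knockdown replicate 4 (7.42 FPKM) was barely above knockdown replicate 3 (7.37 FPKM).

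**Figure D3:**
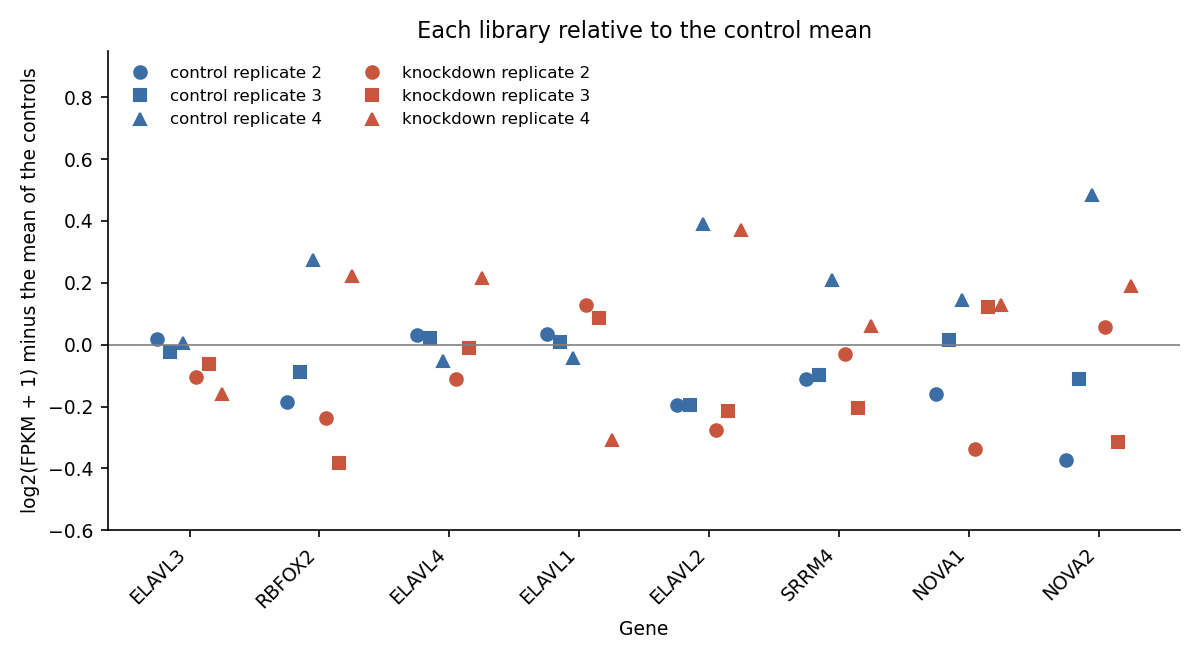
Each library's log2(FPKM + 1) minus the mean of the 3 controls, for the 8 tested genes, with blue for control, red for knockdown and triangles for replicate 4. The triangles of both groups lie above the other points for ELAVL2, RBFOX2, SRRM4, NOVA1 and NOVA2 and below them for ELAVL1, and all 3 red points of ELAVL3 lie below its blue ones.

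Transcript length moved with the same libraries. Genes were split into 4 equal classes by their longest coding transcript in GENCODE (11001 genes matched, 90.4% of those tested). From the shortest to the longest class the median difference between control replicate 4 and control replicates 2 and 3 was -0.12, -0.06, 0.01 and 0.12 on the log2(FPKM + 1) scale. In the knockdown libraries it was -0.10, -0.04, -0.0032 and 0.08. All 8 tested members have long transcripts: ELAVL2, ELAVL3, ELAVL4 and NOVA1 fall in the third class and ELAVL1, NOVA2, RBFOX2 and SRRM4 in the longest. Both libraries numbered 4 lay above the other 4 for 24.7% of genes in the third class and 35.8% in the longest. They lay below for 23.5% and 12.4%. ELAVL2 exceeded the median of its class, at 0.59 in control and 0.61 in knockdown libraries. RBFOX2 did so too, at 0.41 and 0.53, and NOVA2 at 0.73 and 0.32. NOVA1 (0.22 and 0.24) and SRRM4 (0.31 and 0.18) also lay above their class medians in both groups. ELAVL4 was below in control (-0.08) and above in knockdown libraries (0.28), and ELAVL3 was slightly below in both (0.0065 and -0.08). ELAVL1, with 6015 bases, went the other way at -0.06 and -0.42. The part of length in these differences was not tested.

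**Figure D4:**
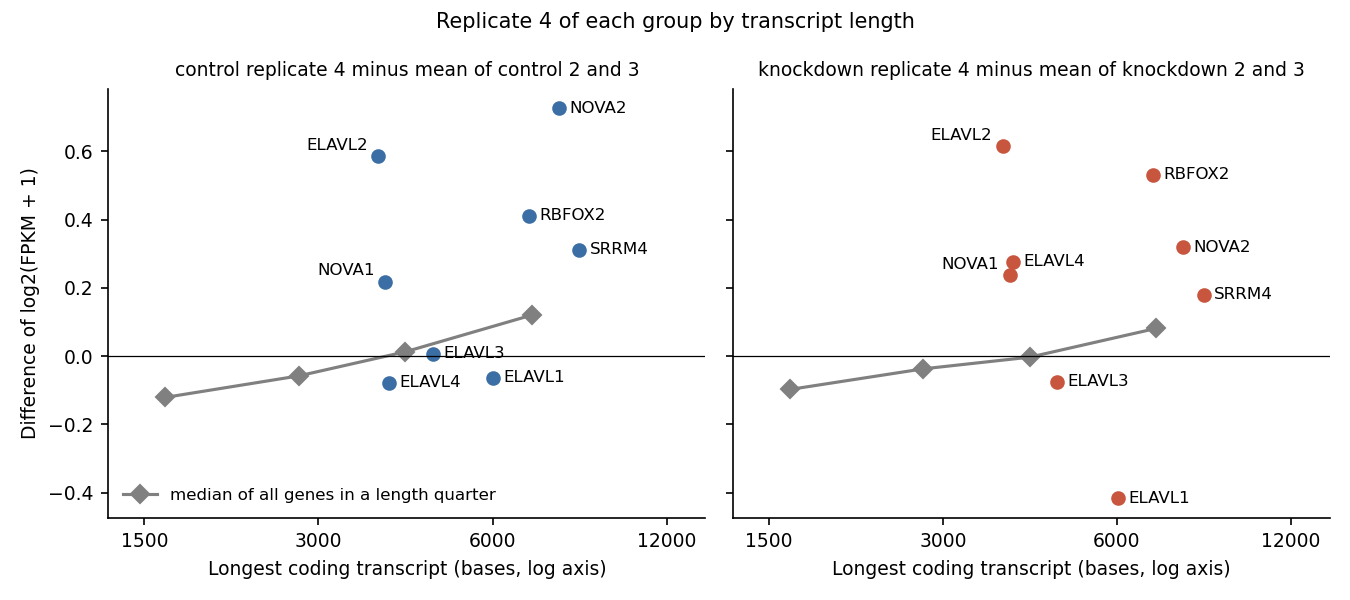
Replicate 4 minus the mean of replicates 2 and 3, as a difference of log2(FPKM + 1), against the length of the longest coding transcript (bases, log axis), for control (left) and knockdown (right) libraries. Grey diamonds are medians of all genes in each of 4 length classes and rise from -0.12 to 0.12 and from -0.10 to 0.08. Coloured points are the 8 tested genes. ELAVL2, NOVA1, NOVA2, RBFOX2 and SRRM4 lie above the medians of their classes on both sides, ELAVL4 only on the right, and ELAVL1 and, slightly, ELAVL3 below.

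Among themselves the tested members varied together in part. Over the 6 libraries SRRM4 and NOVA2 had a Pearson r of 0.95, RBFOX2 and ELAVL2 0.94, and RBFOX2 and SRRM4 0.91, while ELAVL1 and ELAVL4 had -0.89. These values describe 6 libraries, of which the libraries numbered 4 stand apart for 6 of the 8 genes, and carry no p. The same holds for the genes most like each member. Of 8772 candidates with a mean of at least 5 FPKM, TSPAN2 was the most like ELAVL2 (r = 0.9996). DHX40 and RNF165 were most like RBFOX2 (0.997 and 0.995), EHMT2 and KBTBD7 most like SRRM4 (0.999 and 0.993), and ZNF514 and SPTAN1 most like NOVA2 (both 0.997). TDP1 and BPHL were most like ELAVL3 (0.998 and 0.989), TAOK3 and FBXO8 most like ELAVL4 (0.991 and 0.987), USP14 and ARHGAP39 most like ELAVL1 (both 0.995), and WDSUB1 and SNHG11 most like NOVA1 (0.986 and 0.985). Other genes came close too: of the 8772 candidates, 216 exceeded 0.95 with ELAVL2, the most for any member, and 11 with NOVA1, the fewest.

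Other splicing regulators of neurons and muscle gave the setting in which the members stood. PTBP1, which represses neuronal exons in non-neuronal cells, had a mean of 181 ± 5.41 FPKM in the controls and 185 ± 9.86 after knockdown, and its neuronal paralogue PTBP2 at 10.3 ± 0.13 and 10.5 ± 0.75 FPKM (SD, n = 3 each). PTBP2 thus made up 5.28%, 5.33% and 5.48% of their sum in control replicates 2, 3 and 4 and 5.40%, 5.997% and 4.84% in knockdown replicates 2, 3 and 4 (exact two-sided permutation p = 0.8). SRRM3, a paralogue of SRRM4 that also acts on microexons, was more abundant than SRRM4, at 26.4 ± 0.66 FPKM (control) and 26.2 ± 4.72 FPKM (knockdown), and the widely expressed SRRM2 stood at 94.1 ± 7.53 and 96.2 ± 7.17 FPKM. HNRNPH1 had 212 ± 14.8 and 202 ± 8.78 FPKM and HNRNPF 176 ± 12.9 and 176 ± 13.3. Of the 30 genes of this list 24 were tested and 0 passed in either direction, with 13 fitted above 0, 11 below and a median of 0.01. QKI and RBM38 lay higher and CELF4 lower without overlap, of which RBM38 had an unadjusted p under 0.05. These 3 are named because of their values. Among all 12164 genes tested 4.01% lay higher and 4.35% lower without overlap. Those shares also apply to the counts of the lists that follow.

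Neuronal RNA-binding proteins of mRNA stability and translation gave a similar picture. Of 26 genes 23 were tested, 0 passed, and the median log2 difference was 0.01. The AU-rich element binding protein gene HNRNPD had 267 ± 19.6 FPKM in control and 261 ± 31.5 FPKM in knockdown libraries. The stress granule protein gene G3BP1 stood at 82.9 ± 2.47 and 82.9 ± 8.35 FPKM, and the progenitor protein MSI1 at 4.70 ± 0.38 and 4.88 ± 0.36 (SD, n = 3 each). CPEB2 and ZFP36 were higher without overlap, ZFP36 with an unadjusted p under 0.05, and are named because of their values. They are 2 of 23 tested genes, against 4.01% of all genes tested.

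Transcripts reported as ELAVL targets were read at the gene level. Of 28 listed genes, which include NOVA1 and MSI1, 22 were tested, 0 passed, 13 were fitted above 0 and 9 below, and the median was 0.01. MYCN, the oncogene of this tumour type, had 2102 ± 91.3 FPKM (control) and 1903 ± 179 FPKM (knockdown), with overlap. The axonal growth protein gene GAP43 stood at 50.5 ± 2.41 and 48.2 ± 1.16 FPKM, with overlapping groups. CCND1 had 254 ± 5.13 and 263 ± 33.2 FPKM, the neurofilament gene NEFM 184 ± 35.9 and 156 ± 56.0, and CDKN1A, an inhibitor of the cell cycle, 0.95 ± 0.32 and 1.29 ± 0.14 (SD, n = 3 each). Of the 22 tested genes of this list 1 was higher and 1, CTNNB1, lower without overlap, the latter named because of its values. Of all genes tested 4.01% were higher and 4.35% lower without overlap.

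Genes whose exons are reported targets of NOVA, RBFOX or SRRM4 can be given only by their total level. Of 13 NOVA targets 8 were tested, 0 passed, and the median was 0.04. Their most abundant members overlapped between groups: APLP2 at 66.5 ± 2.07 and 63.4 ± 6.84 FPKM, CLSTN1 at 21.8 ± 1.28 and 22.9 ± 2.09, EPB41 at 21.8 ± 1.87 and 24.3 ± 4.85, and the inhibitory synapse scaffold GPHN at 14.8 ± 1.75 and 14.0 ± 0.13. AGRN, the organiser of the neuromuscular synapse, was the exception, at 0.25, 0.25 and 0.21 FPKM in the controls against 0.88, 0.37 and 22.9 FPKM in knockdown replicates 2, 3 and 4. The knockdown libraries have the same order here as in their summed interferon genes, whose part in this result was not tested. AGRN lay higher without overlap and reached the filter only through knockdown replicate 4.

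Of 23 RBFOX targets 17 were tested, 0 passed, none lay apart without overlap, and the median was -0.03. SNAP25 of the vesicle release machinery stood at 105 ± 15.4 and 97.9 ± 11.7, SRC at 35.9 ± 1.91 and 38.1 ± 2.68, and NUMB, an inhibitor of Notch signalling, at 30.6 ± 2.58 and 32.4 ± 1.86 FPKM (SD, n = 3 each). Of 19 SRRM4 targets, which also include SRC, 18 were tested, 0 passed, and the median was 0.03. EIF4G1 stood at 138 ± 8.40 and 137 ± 16.9 FPKM, GIT1 at 29.7 ± 1.23 and 30.5 ± 0.45, and DAAM1 at 5.63 ± 1.07 and 5.51 ± 0.51 FPKM. REST, described next, and MEF2D, named because of its values, were higher without overlap, and MEF2D had an unadjusted p under 0.05. They are 2 of the 18 tested genes, against 4.01% of all genes tested.

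REST, the transcriptional repressor of neuronal genes that restrains SRRM4 and is itself a splicing target of it, was low. It stood at 1.70, 1.67 and 1.06 FPKM in control replicates 2, 3 and 4 and the knockdown replicates had 2.24, 2.04 and 1.71 FPKM. The groups did not overlap, but the lowest knockdown value and the highest control nearly touched, and the log2 difference of 0.28 (SE 0.15, 95% interval -0.08 to 0.64) did not pass (adjusted p = 0.9998, limma). Of REST and its 9 listed corepressors, all tested, 0 passed and the median was -0.04. Without overlap 1 of these 10 genes lay higher and 2 lower, against 4.01% and 4.35% of all genes tested. HDAC1 stood at 53.6 ± 1.44 and 50.02 ± 1.93 FPKM and HDAC2 at 74.2 ± 3.52 and 67.3 ± 4.48 FPKM, both lower without overlap, and KDM1A at 73.4 ± 4.49 and 70.1 ± 3.94 FPKM with overlap (SD, n = 3 each).

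The series title joins GOMAFU with miR-137, so the members were searched for its seed match. The mature sequence (RefSeq, GRCh38.p14) is shown with its seed, bases 2 to 8, in capitals.
hsa-miR-137-3p: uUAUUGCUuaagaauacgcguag

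The complementary letters AGCAATA were searched on the transcript strand in the 3′ UTR of each principal GENCODE transcript. The letters occurred once each in 4 members, shown with 8 bases on either side and the match in capitals, against 12.0% of the 10917 tested genes that have such a UTR, whatever its length.
ELAVL1: tgaaattgAGCAATAggcaggca
ELAVL3: ggcgtccgAGCAATAagggctgg
NOVA1: gatcaaaaAGCAATAtagttgca
NOVA2: ccctagaaAGCAATAgccttcga

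Counted from the first base of the 3′ UTR, the match lies at bases 1660 to 1666 of 4904 in ELAVL1 and 2643 to 2649 of 3200 in ELAVL3. It lies at bases 507 to 513 of 2070 in NOVA1 and 2037 to 2043 of 6129 in NOVA2. No match lay in those of ELAVL2, RBFOX1 and SRRM4 (1759 to 6253 bases). The principal transcripts of ELAVL4 and RBFOX3 have UTRs of only 224 and 67 bases, and that of RBFOX2 has none annotated, so these 3 were hardly searched. The 4 matches lie in UTRs of 2070 to 6129 bases. The 12.0% of tested genes was not matched to the members for UTR length, so the count of 4 cannot be read against it. Between knockdown and control the 4 genes with a match had log2 differences of -0.03, -0.11, -0.03 and -0.02, and the other tested members -0.13 to 0.03. A match in these letters is a description and not evidence of a site in use, and the level of miR-137 was not analysed here.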

How the data were processed

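Polyadenylated RNA of 6 libraries was sequenced as paired reads of 150 bases with a target of 100M reads, per the labels' protocols. The authors deposited FPKM values, 1 column per library; TopHat2, Cuffdiff and hg38 are named in the submitters' processing notes, and for versions, annotation, filters and strand the sources used here give nothing. FPKM is relative to the mapped total, so a few abundant transcripts that rise lower all others in that library. Since FPKM is not a count, neither a count model nor counting intervals were used; relative depth came from the steps between low values.

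The 12164 genes averaging 1 FPKM or more were compared as log2(FPKM + 1) with limma 3.58.1 in R 4.3.3 (eBayes with trend), two-sided, with Benjamini-Hochberg adjustment over all of them and a threshold of 0.05. The scale understates changes of low genes. Shares were tested by exact permutation (scipy 1.17.1), and coding sequences were aligned with mafft 7.526. The limma step was tested on simulated data. Coordinates are those of GENCODE release 29.

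The genes named are the 10 members, MIAT, per list the 3 genes with the highest control mean plus 15 fixed genes, per member the 2 genes most like it by Pearson r, and the nearest tested gene on each side; genes described as named because of their values were chosen after these were seen. Some genes that the rule names are not reported here. The members and lists were chosen with earlier results of these data known. Alternatives were other pseudocounts (0.1, 0.01), filters (none, 5 FPKM), scalings, eBayes options, library weights, a replicate block and libraries left out.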

Additional observations from a re-analysis of the deposited data

How the results depend on the processing

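No member passed the threshold under any alternative in which it was tested (17 for 7 members and 16 for NOVA2, which falls under the filter of 5 FPKM), with adjusted p from 0.196 to 1; this says nothing of stability, as MIAT did not pass either in the chosen design. Over all genes, 22 passed with library weights, MIAT among them (adjusted p = 0.00299, limma), and 1, again MIAT (0.0118), without both libraries numbered 4. Library weights reversed ELAVL1 (0.10), ELAVL4 (-0.10), NOVA2 (0.11) and SRRM4 (0.027) and moved NOVA1 to -0.24 (adjusted p = 0.196, the lowest of any member); leaving out both libraries numbered 4 reversed ELAVL1 (0.086), ELAVL4 (-0.089) and NOVA2 (0.11). Why the libraries differ was not tested. Leaving out 1 library at a time gave ranges of -0.11 to 0.11 for ELAVL1, -0.25 to 0.15 for ELAVL2, -0.062 to 0.10 for ELAVL4, -0.11 to 0.12 for NOVA1, -0.21 to 0.22 for NOVA2, -0.31 to 0.0032 for RBFOX2 and -0.12 to 0.045 for SRRM4. Without control replicate 4, ELAVL2, NOVA1, NOVA2, RBFOX2 and SRRM4 reversed; without knockdown replicate 2, ELAVL2 and NOVA1; without knockdown replicate 3, ELAVL2, NOVA2 and SRRM4; and without knockdown replicate 4, ELAVL1 and ELAVL4. The neuronal ELAVL share ran from -1.66 to 0.59 percentage points and the PTBP2 share from -0.25 to 0.33; the former reversed without knockdown replicate 2 or 3 and the latter without knockdown replicate 3. Same-numbered libraries deviated from their group means with correlations of 0.09, 0.17 and 0.32 for numbers 2, 3 and 4. Control replicate 2 correlated more with knockdown replicate 3 (0.32) than with knockdown replicate 2. Control replicate 4 correlated at -0.19 and -0.34 with knockdown replicates 2 and 3, so number 4 shared part of its deviation across the groups. The labels do not say that the numbers mark a shared culture or day, so the main design left the libraries unpaired. Its standard errors therefore include what the libraries numbered 4 share. With the replicate number as a block 0 genes and 0 members passed, and the paired ELAVL and PTBP2 shares kept their differences (-0.31 and 0.05, exact p = 0.75 each). Scaling moved the median of all genes to between -0.02 and -0.01. The number of reads behind an FPKM value is unknown, which limits RBFOX1, RBFOX3 and NOVA2 most.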
